A study of Mus musculus with 18 samples.

Results

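The knockdown of Pex7 in mouse primary neural stem cells was profiled by RNA sequencing in 4 libraries of a series of 18. Libraries Pex7sh 1 and Pex7sh 2 came from cells labelled as PEX7-knockdown, named for a short hairpin RNA against Pex7. Libraries scramble 1 and scramble 2 came from cells labelled WT, named for a scrambled hairpin. The label therefore gives genotype WT to cells that the title assigns to the hairpin control. The hairpin's target site, its delivery, and the age and strain of the source animals are not given in the sources used here. The design text speaks of triplicates, but each group held 2 libraries, and nothing in the labels says that they came from separate cultures. A p-value here thus compares the groups with library-to-library spread only, and that spread may be technical. The libraries held 18014554 and 18664108 reads in the Pex7sh group, against 17215545 and 18364778 in the scramble group. Of 32941 genes in the table, 12482 had a mean of at least 1 RPKM (reads scaled to exon length and library size) and entered the comparison. Pex7 itself lay just under that mean and is shown as the targeted gene.

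Pex7 is the cytosolic receptor that carries proteins with the second type of peroxisomal targeting signal, PTS2, into peroxisomes. PTS2 is a short stretch near the start of the protein, and in mouse few enzymes use it. Best known are Agps, which makes the ether bond of plasmalogens, Phyh, which starts the breakdown of phytanic acid, and the thiolase Acaa1, which closes the cycle of peroxisomal fatty acid oxidation. Loss of PEX7 in people causes rhizomelic chondrodysplasia punctata, with low plasmalogens and impaired brain development. RNA sequencing measures the transcripts of the receptor and its cargo, not the import of the proteins.

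The coding bases of the PTS2 of each cargo gene are shown because they are the signal that Pex7 reads. They are given 5′ to 3′ on the coding strand, with the 9 codons that matched the PTS2 pattern in capitals and the codons beside them in lower case (GENCODE M21 on GRCm38/mm10).
Agps, codons 50 to 58, chr2:75832351-75832395, plus strand: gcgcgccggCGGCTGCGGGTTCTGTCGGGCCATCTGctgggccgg
Phyh, codons 9 to 17, chr2:4919085-4919129, plus strand: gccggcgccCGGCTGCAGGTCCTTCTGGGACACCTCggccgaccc
Acaa1a, codons 3 to 11, chr9:119341515-119341556, plus strand: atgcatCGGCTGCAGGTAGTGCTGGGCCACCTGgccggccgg
Acaa1b, codons 3 to 11, chr9:119156953-119156994, minus strand: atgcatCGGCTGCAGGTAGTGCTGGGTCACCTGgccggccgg
In amino acids the pattern was arginine or lysine, then leucine, valine, isoleucine or glutamine, any pair, then leucine, valine, isoleucine, histidine or glutamine, then leucine, serine, glycine, alanine or lysine, any residue, histidine or glutamine, and leucine, alanine or phenylalanine. It occurred within the first 60 codons of 51 of 21612 coding genes (0.236%), and a match alone does not make a protein a cargo of Pex7.

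Pex7 (chromosome 10, 19853900 to 19907689, minus strand) had 0.50 and 0.669 RPKM in the Pex7sh libraries, against 1.19 and 1.22 RPKM in the scramble libraries. These levels rested on 109 and 151 reads in the Pex7sh libraries, against 247 and 270 reads in the scramble libraries. Both knockdown libraries lay below both controls, and their counting intervals did not overlap those of the controls. The mean was 0.585 ± 0.119 RPKM with the Pex7 hairpin and 1.20 ± 0.0207 RPKM with the scramble (SD, n = 2 each), so the mean level was 51.3% lower. The distance between the nearest libraries of the 2 groups was 0.39 on the log2(RPKM + 1) scale, and among 10950 coding genes with a mean of at least 100 reads only mitochondrial ND4L had a larger one. In limma on all 21873 genes with no filter on low values, the log2 difference was -0.48 with a standard error of 0.11, an unadjusted p of 0.0113 and a Benjamini-Hochberg adjusted p of 1.00. That scale understates the change of low genes, and limma-voom on the recovered reads gave -1.05 with an unadjusted p of 0.000847 and an adjusted p of 1.00. An exact permutation test of 2 libraries against 2 cannot give a two-sided p below 0.333.

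No cargo transcript had both Pex7sh libraries on the same side of the controls. Agps had 8.94 and 8.51 RPKM in the Pex7sh libraries, against 8.57 and 8.0 RPKM in the scramble libraries. Phyh had 2.14 and 3.65 RPKM in the Pex7sh libraries, against 2.42 and 2.88 RPKM in the scramble libraries. Acaa1a had 13.8 and 14.4 RPKM in the Pex7sh libraries, against 14.6 and 14.3 RPKM in the scramble libraries. The groups overlapped for each of these genes, and for Phyh the Pex7sh libraries lay on either side of both controls. The 95% interval of the log2 difference ran from -0.14 to 0.28 for Agps, from -0.48 to 0.62 for Phyh and from -0.22 to 0.16 for Acaa1a. Acaa1b, a near copy of Acaa1a whose reads the counting could have shared, lay under 1 RPKM in every library, with 0.764 and 0.765 RPKM in the Pex7sh libraries, against 0.563 and 0.860 RPKM in the scramble libraries.

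**Figure D1:**
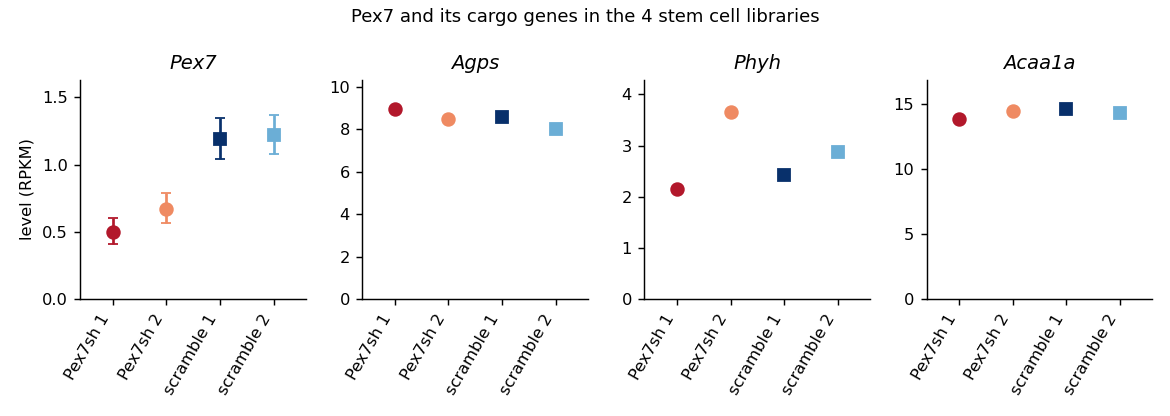
Level in RPKM of Pex7, Agps, Phyh and Acaa1a in each library, with 95% Poisson counting intervals for Pex7 only. Pex7 sits at 0.50 and 0.669 RPKM in the Pex7sh libraries, against 1.19 and 1.22 RPKM in the scramble libraries, while for each cargo gene the groups overlap.

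The 2 scramble libraries differed more from each other than any other pair of replicates in the series, which bears on every comparison with them. Over 8061 coding genes with at least 5 RPKM, the SD of the log2 difference within the pair was 0.0988 for Pex7sh and 0.258 for scramble. The 4 other replicate pairs of the series gave 0.162 to 0.230 in their own tables. The scramble pair differed in mitosis and DNA replication genes, all higher in scramble 1, and in neuronal and synaptic genes, all lower in scramble 1. Both Pex7sh libraries lay between the 2 controls along that axis. On a score of 62 replication and mitosis genes (mean log2(RPKM + 1)) the Pex7sh libraries had 3.41 and 3.30, against 3.63 and 3.01 in the scramble libraries. The same held over the 8061 genes, where the Pex7sh libraries lay 0.495 and 0.463 of the way from scramble 2 to scramble 1.

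This axis ran along the change of the developing brain from embryonic day 11 to day 18, taken from 1 library at each of those days. Genes that fell 4-fold or more over those days (232 genes) had a median difference of 0.61 log2 between scramble 1 and scramble 2. Genes that rose 4-fold or more (438 genes) had -0.37. The difference between the groups showed no such slope: its medians for the same genes were 0.017 and 0.016 log2. That difference averages 2 controls that lay on either side of the Pex7sh libraries. Against 1 control alone the list medians were not flat. The mitosis list had 0.40 log2 without scramble 1 and -0.35 without scramble 2, and the pan-neuronal list had -0.18 and 0.26. Across genes, Pearson's r with the embryonic change was -0.64 for scramble 1 minus scramble 2 and 0.0026 for Pex7sh minus scramble, a description over genes that share these libraries.

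**Figure D2:**
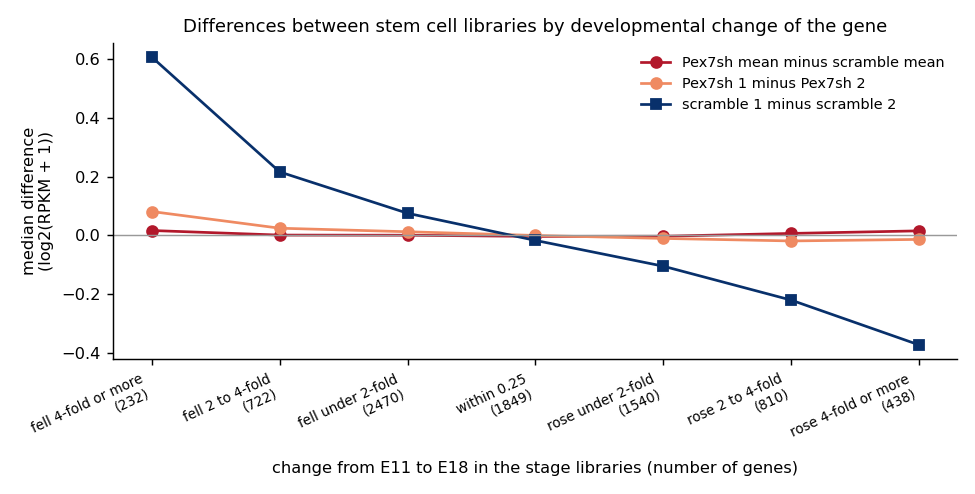
Median difference on the log2(RPKM + 1) scale between stem cell libraries (vertical), for coding genes grouped by their change from embryonic day 11 to 18 (horizontal, number of genes in brackets). The line of scramble 1 minus scramble 2 runs from 0.61 to -0.37, while that of the Pex7sh mean minus the scramble mean stays near 0.

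The lineage lists were those on which the controls differed widely, and few of their genes left the scramble range. None of the 28 mitosis, 34 DNA replication, 19 pan-neuronal, 9 intermediate progenitor or 21 immediate early genes had both Pex7sh libraries above or both below the scramble range. The controls differed by a median of 0.75 log2 on the mitosis list, 0.61 log2 on the replication list and 0.46 log2 on the intermediate progenitor list. Of all genes whose controls differed by over 0.4 log2, 1.66% lay above and 1.83% below. On the pan-neuronal and immediate early lists the medians were 0.39 and 0.27 log2. Of all genes with controls 0.2 to 0.4 log2 apart, 3.35% lay above and 3.65% below. These counts of 0 are thus close to the background. Among 20 radial glia genes only the RNA-binding protein Msi1 lay outside the range. It had 25 and 25.6 RPKM in the Pex7sh libraries, against 24.3 and 23.9 RPKM in the scramble libraries. All 12 defining markers of radial glia and neural stem cells exceeded 1 RPKM in every library, and so did all 6 of neurons. The neuronal markers summed to 726 and 751 RPKM in the Pex7sh libraries, against 627 and 805 RPKM in the scramble libraries. In bulk RNA, fewer cells of a type and less RNA per cell cannot be told apart. The marker sums of the oligodendrocyte lineage were 321 and 322 RPKM in the Pex7sh libraries, against 428 and 216 RPKM in the scramble libraries. The 6 microglial markers summed to 2.48 and 1.52 RPKM in the Pex7sh libraries, against 3.04 and 1.82 RPKM in the scramble libraries, and none of the 6 reached 1 RPKM in every library. The 3 endothelial markers summed to 0.193 to 0.218 RPKM over the 4 libraries.

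Genes of choroid plexus and macrophages varied more between single libraries than between groups. Ttr, the transthyretin that choroid plexus secretes, had 157 and 64.6 RPKM in the Pex7sh libraries, against 28.3 and 185 RPKM in the scramble libraries. Lyz2, a macrophage lysozyme, had 15.9 and 7.65 RPKM in the Pex7sh libraries, against 26.0 and 8.23 RPKM in the scramble libraries. Marco, a macrophage scavenger receptor, had 6.06 and 3.28 RPKM in the Pex7sh libraries, against 11.4 and 2.80 RPKM in the scramble libraries. Each of these genes spanned more in the scramble pair than between the group means, and the part of such cells in the results below was not tested.

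**Figure D3:**
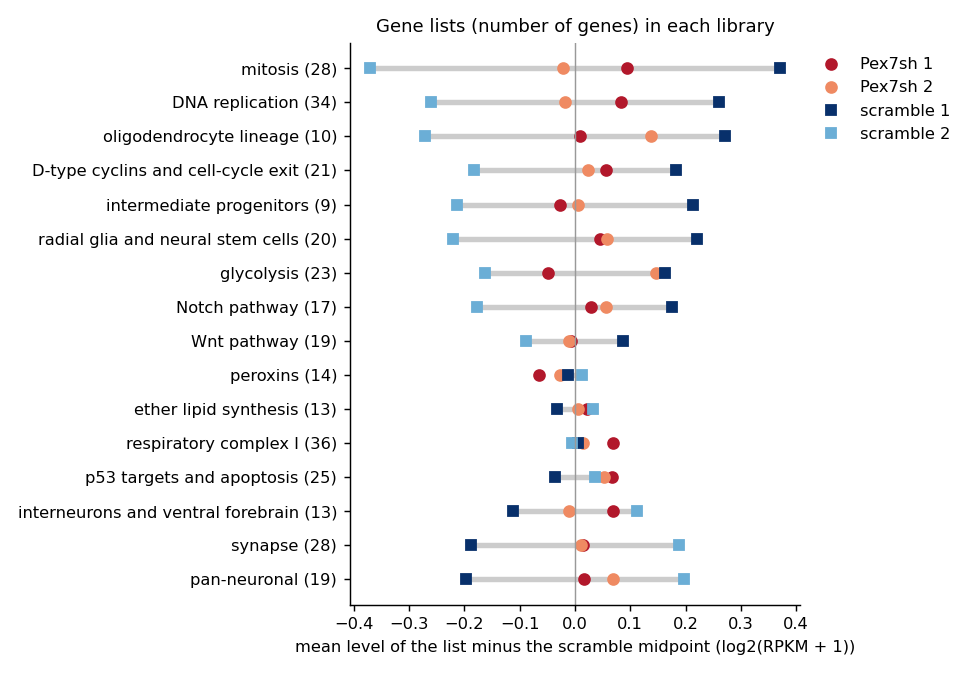
Mean level of 16 gene lists in each library, as the distance in log2(RPKM + 1) from the midpoint of the 2 scramble libraries; circles are Pex7sh, squares scramble, and the grey bar spans the scramble pair. For mitosis, replication, radial glia, neuronal and synaptic genes both Pex7sh libraries sit inside the bar.

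Across all genes, limma on log2(RPKM + 1) called none of the 12482 at a Benjamini-Hochberg adjusted p under 0.05 (0% called), with 184 at an unadjusted p under 0.05, and limma-voom on the recovered reads also called none, with 116 at an unadjusted p under 0.05. The median standard error was 0.106, so the median 95% interval reached 0.272 log2 to either side, while the median size of the differences was 0.0537. With the cell-cycle score as a covariate, which takes out the scramble axis, the median standard error was 0.0637. In that limma fit 857 genes had an unadjusted p under 0.05. The centred score was 0.293 and -0.327 in the scramble libraries, against 0.071 and -0.037 in the Pex7sh libraries. It therefore absorbs most of the spread between the controls, and the smaller error rests mainly on the Pex7sh pair. Again none was called, and the smallest adjusted p was 0.0536. With the first component of the within-group residuals in its place, limma called 4 genes (0.032%), the small RNAs Mir3569, Gm24564, Gm24144 and Mir99b, at an adjusted p of 0.0402. Their mean counts were 2 to 8 reads, and no protein-coding gene was among them. The component was -0.707 and 0.707 in the scramble libraries, against -0.0071 and 0.0071 in the Pex7sh libraries. It was taken from the same residuals and absorbs nearly all of the spread between the controls. The error of that fit thus rests almost only on the Pex7sh pair, and its adjusted p cannot be taken at face value.

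The scramble range gives a second view. A gene lies outside it when both Pex7sh libraries are above the higher or below the lower scramble library. That held for 1319 genes above (10.6%) and 1485 below (11.9%), and the gap between the nearest libraries was at least 0.2 log2 for 63 above (0.505%) and 69 below (0.553%). The share followed the distance between the controls: 25.8% above and 28.7% below among genes whose scramble libraries differed by under 0.05 log2, against 1.66% and 1.83% where they differed by over 0.4. Among genes whose controls differed by 0.05 to 0.1 log2 it was 16.5% above and 18.5% below, and at 0.1 to 0.2 log2 it was 8.84% and 10.3%. A gene on which the controls differ could hardly leave the range, so the measure sees mainly the genes that the scramble axis leaves alone. A gap of 0.5 log2 or more was reached by 28 genes (0.224%): 11 above and 15 below among 785 non-coding genes, and 2 below among 11697 coding genes, Gm48552 and Cldn20, which are named here after their values were seen. Cldn20, a claudin, had 0.423 and 0.653 RPKM in the Pex7sh libraries, against 1.68 and 1.74 RPKM in the scramble libraries, and its values did not resolve into whole reads.

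Counting error set a stricter limit. For 54 genes (0.445%) the 95% Poisson intervals of both Pex7sh libraries lay wholly above those of both scramble libraries, and for 19 (0.157%) wholly below, of 12130 genes with recovered reads. Within the scramble pair such intervals lay apart for 4920 genes (40.6%), and within the Pex7sh pair for 807 (6.65%).

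Among genes with a mean of at least 100 reads, leaving out clone names, small RNAs and pseudogenes, those farthest above the scramble range included Rnf152, Jazf1, Ubald2, Tspan2 and Trim32. Of the 12 with the largest gaps, 10 were also in the set of 54. Rnf152, a lysosomal ubiquitin ligase that restrains mTORC1, had 6.73 and 6.66 RPKM in the Pex7sh libraries, against 4.24 and 5.12 RPKM in the scramble libraries. Its log2 difference was 0.44 with a standard error of 0.11 in limma, with an adjusted p of 1.00, and 0.45 with a standard error of 0.065 and an adjusted p of 0.347 once the cell-cycle score was in the fit. Jazf1, a zinc finger protein of a histone acetyltransferase complex, had 14.5 and 15.5 RPKM in the Pex7sh libraries, against 9.87 and 11.5 RPKM in the scramble libraries. For both genes the gap between the groups exceeded the distance between the controls.

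Ubald2 had 39.6 and 40.9 RPKM in the Pex7sh libraries, against 31.7 and 30.9 RPKM in the scramble libraries, and its controls differed by 0.035 log2. Tspan2, a tetraspanin of the oligodendrocyte lineage, had 1.89 and 2.01 RPKM in the Pex7sh libraries, against 1.26 and 1.25 RPKM in the scramble libraries. Trim32 is a ubiquitin ligase that favours neuronal differentiation of mouse neural progenitors. It had 67.3 and 67.7 RPKM in the Pex7sh libraries, against 53.4 and 57.0 RPKM in the scramble libraries, the highest level among these genes. Togaram1, a microtubule regulator of cilia, had 3.52 and 3.35 RPKM in the Pex7sh libraries, against 2.56 and 2.53 RPKM in the scramble libraries. The other 6 were Acta2, Ier3ip1, Dynlt3, B3galnt1, Fstl5 and Lrrc57, with log2 differences of 0.27 to 0.41 in limma, and the adjusted p of all 12 was 1.00. Acta2 also marks pericytes, whose 4 defining markers summed to 3.12 and 2.80 RPKM in the Pex7sh libraries, against 3.64 and 3.16 RPKM in the scramble libraries; their part was not tested.

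Below the scramble range, under the same filters, the gap was largest for ND4L, a mitochondrial subunit of complex I. It had 14 and 5.41 RPKM in the Pex7sh libraries, against 54.4 and 19.6 RPKM in the scramble libraries. It is short and shares bases with its neighbour ND4, so its counting is uncertain. Its log2 difference was -1.78 between the groups (Pex7sh minus scramble), 1.23 between the Pex7sh libraries and 1.43 between the scramble libraries. Sowahc, an ankyrin repeat protein, had 5.97 and 6.04 RPKM in the Pex7sh libraries, against 8.68 and 7.99 RPKM in the scramble libraries. Cfap300, needed to assemble the dynein arms of motile cilia, had 6.14 and 7.51 RPKM in the Pex7sh libraries, against 9.71 and 9.68 RPKM in the scramble libraries. Cldn12, a claudin, had 8.21 and 7.54 RPKM in the Pex7sh libraries, against 10.5 and 9.93 RPKM in the scramble libraries. For these last 3 genes the counting intervals of the groups were also apart. The remaining 8 were Pantr2, Adam8, Yjefn3, Ovca2, Slc2a6, Mrps24, Ifi27 and Pgap6, with log2 differences of -0.51 to -0.26 in limma, and the adjusted p of all 12 was 1.00.

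**Figure D4:**
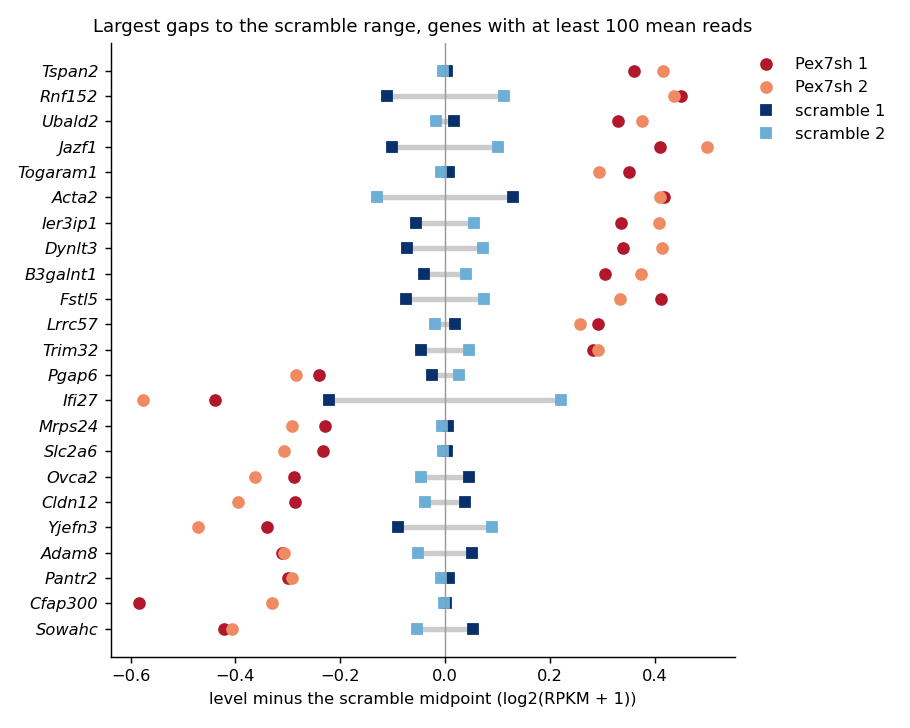
Level in each library of the 12 genes farthest above and 11 of the 12 farthest below the scramble range (ND4L left out for scale), among genes with a mean of at least 100 reads and without clone names, small RNAs or pseudogenes, as the distance in log2(RPKM + 1) from the scramble midpoint; circles are Pex7sh, squares scramble, and the grey bar spans the scramble pair. These genes were chosen for lying outside the bar, and the Pex7sh pair lies close together for most of them.

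Peroxins, the proteins that build peroxisomes and import their enzymes, lay below the scramble range more often than above it. Of 14 other members measured, 5 were below (35.7%) and 1 above, with a median difference of -0.040 log2 against -0.0027 over all genes. The share below was 11.9% over all genes and 18.5% over genes whose controls differed by 0.05 to 0.1 log2, where the median of this list (0.062) falls. The gap was at least 0.05 log2 for 2 of the 5 below and also for the 1 above. Pex11a, which elongates peroxisomes before they divide, had 2.53 and 2.74 RPKM in the Pex7sh libraries, against 3.18 and 2.98 RPKM in the scramble libraries. Pex6, an ATPase that recycles the Pex5 receptor, had 12.6 and 14.2 RPKM in the Pex7sh libraries, against 14.8 and 14.9 RPKM in the scramble libraries. Pex3, a membrane anchor of peroxisome assembly, and Pex2, a ubiquitin ligase of the import machinery, had smaller gaps, of at most 0.039 log2. No peroxin passed limma. The median kept its sign when any 1 library was left out, at -0.047 to -0.040.

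Ether lipid genes were spread on both sides. Of 13 measured, 3 lay above and 3 below the scramble range (23.1% each), against 10.6% and 11.9% over all genes. Dhrs7b, which reduces the ether-bound intermediate after the step of Agps, had 6.84 and 6.35 RPKM in the Pex7sh libraries, against 5.42 and 5.70 RPKM in the scramble libraries. Its log2 difference of 0.21 had a standard error of 0.09, an unadjusted p of 0.059 and an adjusted p of 1.00 in limma. Far2, which makes fatty alcohols for the pathway, had 1.20 and 1.30 RPKM in the Pex7sh libraries, against 1.34 and 2.07 RPKM in the scramble libraries. Among 36 other peroxisomal enzymes and transporters 3 lay above (8.33%) and 5 below (13.9%), close to the shares over all genes. The membrane protein Pxmp2 had 1.34 and 1.03 RPKM in the Pex7sh libraries, against 2.76 and 1.5 RPKM in the scramble libraries.

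Complex I of the respiratory chain had 10 of 36 nuclear subunits above the scramble range (27.8%) and none below, with a median of 0.026 log2. The share above was 10.6% over all genes and 16.5% over genes whose controls differed by 0.05 to 0.1 log2, where the median of this list (0.084) falls. Ndufa6 had 20.8 and 20.4 RPKM in the Pex7sh libraries, against 18.4 and 18.3 RPKM in the scramble libraries. Ndufs6 had 24.4 and 23.5 RPKM in the Pex7sh libraries, against 20.1 and 21.4 RPKM in the scramble libraries. Ndufa1 had 34.7 and 31.7 RPKM in the Pex7sh libraries, against 28.0 and 29.9 RPKM in the scramble libraries. For 6 of the 10 the gap was at least 0.05 log2, and none passed limma. Pex7sh 1 carried much of this: without it the median of the list was 0.0080, and without Pex7sh 2 it was 0.075.

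Complexes II to V had 3 of 39 genes above and 3 below (7.69% each), against 10.6% and 11.9% over all genes. Their median of 0.018 was 0.035 without Pex7sh 2 and 0.018 without scramble 1. It turned to -0.013 without Pex7sh 1 and to -0.020 without scramble 2. The difference of these lists from complex I was not tested. The tricarboxylic acid cycle had 2 of 19 above and 5 below, with a median of -0.017 that was 0.078 without scramble 1 and -0.071 without scramble 2. Of 46 assembly factors of the respiratory chain, a list added after the values had been seen, 3 lay above and 12 below (26.1%). The share below was 11.9% over all genes and 18.5% over genes with controls 0.05 to 0.1 log2 apart, where the median of this list (0.085) falls. Cox20, a chaperone of cytochrome oxidase, had 3.77 and 3.09 RPKM in the Pex7sh libraries, against 4.67 and 4.81 RPKM in the scramble libraries. Uqcc3, an assembly factor of complex III, had 9.40 and 10.4 RPKM in the Pex7sh libraries, against 12.2 and 12.3 RPKM in the scramble libraries. Ecsit, an assembly factor of complex I, had 9.25 and 9.81 RPKM in the Pex7sh libraries, against 11.2 and 11.4 RPKM in the scramble libraries. These groups did not overlap, but the median of the assembly list was 0.0041 and it turned to -0.035 without scramble 1. Of 77 mitochondrial ribosomal protein genes, also added afterwards, 8 lay above and 14 below, and of 12 coenzyme Q genes 2 above and 3 below, Coq4 with the widest gap.

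**Figure D5:**
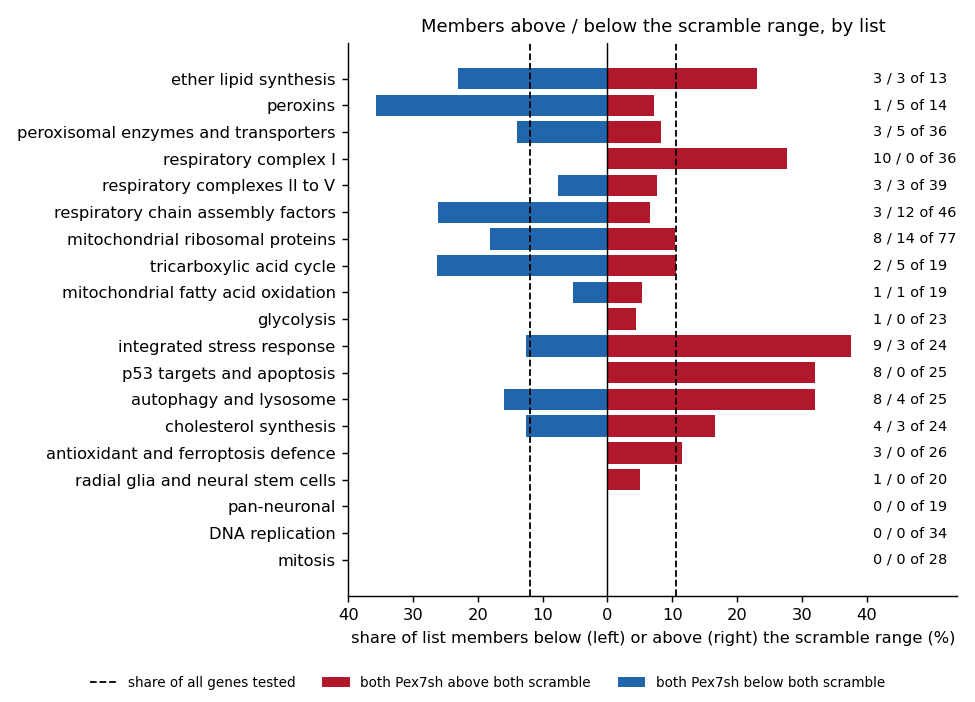
Share of the measured members of 19 gene lists whose Pex7sh libraries both lie above (right) or below (left) both scramble libraries, with the counts at the right; dashed lines mark the 10.6% above and 11.9% below among all 12482 genes. Complex I, p53 target and apoptosis, and integrated stress response genes reach 27.8%, 32.0% and 37.5% above, and peroxins 35.7% below.

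A list of p53 targets and apoptosis genes had 8 of 25 members above the scramble range (32.0%) and none below, with a median of 0.047 log2. The shares were 10.6% above and 11.9% below over all genes. They were 8.84% and 10.3% over genes with controls 0.1 to 0.2 log2 apart, where the median of this list (0.120) falls. The transcription factor p53 answers DNA damage. Mdm2, the ubiquitin ligase of p53, had 18.1 and 18.3 RPKM in the Pex7sh libraries, against 15.6 and 16.5 RPKM in the scramble libraries. Ccng1 had 55.2 and 57.8 RPKM in the Pex7sh libraries, against 48.0 and 51.7 RPKM in the scramble libraries. Cdkn1a, the p53-driven inhibitor of cyclin-dependent kinases, had 47.9 and 49.1 RPKM in the Pex7sh libraries, against 43.7 and 47.6 RPKM in the scramble libraries, a gap of only 0.009 log2. Leaving out 1 library at a time gave medians of 0.036 to 0.084, the highest without scramble 2, and none of the 25 passed limma. The gap was at least 0.05 log2 for only 4 of the 8.

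The integrated stress response, in which Atf4 raises amino acid supply, had 9 of 24 members above (37.5%) and 3 below (12.5%). The shares were 10.6% and 11.9% over all genes. They were 8.84% and 10.3% over genes with controls 0.1 to 0.2 log2 apart, where the median of this list (0.118) falls. The median difference of the list was 0.049 log2, and 0.040 to 0.059 with 1 library left out. Atf4 had 114 and 111 RPKM in the Pex7sh libraries, against 102 and 105 RPKM in the scramble libraries. Sesn2, a leucine sensor upstream of mTORC1, had 44.0 and 44.2 RPKM in the Pex7sh libraries, against 37.8 and 40.4 RPKM in the scramble libraries. Slc7a1, an importer of arginine and lysine, had 21.6 and 22.2 RPKM in the Pex7sh libraries, against 19.9 and 17.9 RPKM in the scramble libraries. The counting intervals of Sesn2 and Slc7a1 were apart between the groups. Trib3, an Atf4 target that damps the response, lay on the other side, with 6.58 and 6.38 RPKM in the Pex7sh libraries, against 7.16 and 7.38 RPKM in the scramble libraries. Only 4 of the 9 had a gap of at least 0.05 log2.

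Autophagy and lysosome genes had 8 of 25 above (32.0%) and 4 below (16.0%), all 8 with gaps under 0.05 log2. The shares over all genes were 10.6% and 11.9%. Mcoln1, a lysosomal calcium channel, had 9.26 and 9.26 RPKM in the Pex7sh libraries, against 10.03 and 10.4 RPKM in the scramble libraries. In lipid metabolism, 3 of 22 genes of fatty acid synthesis and elongation lay above (13.6%) and none below. Among them Acsl4, which activates arachidonic acid, had 15.2 and 15.2 RPKM in the Pex7sh libraries, against 13.1 and 12.7 RPKM in the scramble libraries. Cholesterol synthesis had 4 of 24 above (16.7%) and 3 below (12.5%). Of 26 antioxidant genes 3 lay above (11.5%) and none below. Gpx4, which reduces lipid peroxides in membranes, had 47.8 and 48.2 RPKM in the Pex7sh libraries, against 44.2 and 44.5 RPKM in the scramble libraries.

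In the signalling lists, Nrarp, a target of Notch that feeds back on it, had 3.05 and 2.91 RPKM in the Pex7sh libraries, against 2.34 and 2.09 RPKM in the scramble libraries. Notch genes as a whole had 2 of 17 above (11.8%) and 1 below (5.88%), and Wnt genes 2 of 19 on each side (10.5%). The shares over all genes were 10.6% above and 11.9% below. Among 23 glycolytic genes only Pfkm, a subunit of phosphofructokinase, lay outside the range, with 37.4 and 38.2 RPKM in the Pex7sh libraries, against 31.5 and 33.4 RPKM in the scramble libraries.

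The hairpin is itself processed by the RNA interference machinery, of whose 10 genes 2 lay above (20%) and 3 below (30%). The shares were 10.6% and 11.9% over all genes. They were 25.8% and 28.7% over genes with controls under 0.05 log2 apart, where the median of this list (0.031) falls. These shares are thus close to the background, and the median difference of the list was 0.0091 log2. Ago2, the slicing Argonaute, had 16.6 and 15.5 RPKM in the Pex7sh libraries, against 17.8 and 17.8 RPKM in the scramble libraries. Dicer1 had 9.88 and 9.58 RPKM in the Pex7sh libraries, against 10.4 and 10.7 RPKM in the scramble libraries. Ago3 lay above the range, with 3.10 and 2.91 RPKM in the Pex7sh libraries, against 2.74 and 2.80 RPKM in the scramble libraries. Interferon response genes, which foreign double-stranded RNA can switch on, had 1 of 13 above (7.69%) and 3 below (23.1%). The shares were 8.84% and 10.3% over genes with controls 0.1 to 0.2 log2 apart, where the median of this list (0.193) falls. The gap was at least 0.05 log2 for 1 of the 3 below and also for the 1 above. The median of -0.091 log2 turned to 0.022 without Pex7sh 1 and to 0.026 without scramble 2. It was -0.114 without Pex7sh 2 and -0.164 without scramble 1.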

How the data were processed

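Per the submitters' processing notes, the authors used STAR 2.7.9a, HTSeq 0.6.0 and the mm10 build. The deposited values are RPKM, read from the values themselves. With merged exon lengths of GENCODE M21 and a read total per library they gave whole reads, within 0.01, for 97.7% of values, and 97.1% of genes had a length. Whether counting used strand is not given in the sources used here, so overlapping and antisense genes are uncertain. Genes averaging 1 RPKM or more were tested with limma 3.58.1 (R 4.3.3, mean-variance trend) on log2(RPKM + 1), with Benjamini-Hochberg adjusted p under 0.05, and with limma-voom on recovered reads as an alternative. The design allowed for counts, and RPKM needed this test. Poisson intervals cover counting error only.

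Named genes were Pex7 and its cargo, the 12 largest gaps on each side among genes with at least 100 mean reads (no clone names, small RNAs or pseudogenes), the genes called, up to 4 members per list, and the largest differences within the scramble pair. Members and lists (41, plus 3 added later) were chosen with earlier results of these data known. List counts are descriptions. Same-numbered libraries did not deviate together (correlation 0.010), so the numbers do not pair them. The fits were tested on simulated data. Values of some list members are not reported here.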

Additional observations from a re-analysis of the deposited data

How the results depend on the processing

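The count of 0 genes called held under all alternatives without an added covariate. As an added covariate, the replicate block gave 1 (ND4L, 0.00801% of genes). The residual component gave 4, in a fit whose error rests almost only on the Pex7sh pair. With the cell-cycle score in the fit, none was called except 1 gene at a mean of at least 5 RPKM, the small RNA Gm24564. Genes above the scramble range numbered 2242 with no filter and 878 at a mean of at least 5 RPKM, and 2503 to 4828 with 1 library left out. Below it they numbered 2731, 891, and 2866 to 5120. At a gap of at least 0.2 log2, 108 lay above with a pseudocount of 0.1, 133 with no filter, 22 at a mean of at least 5 RPKM, 30 among coding genes, and 199 to 904 with 1 library left out. On the other side the numbers were 118, 154, 10, 33, and 236 to 922. Fewer genes tested, or fewer libraries to bound the range, set these counts by construction, while the cause of the move with the pseudocount was not tested. Of 470 list medians, 46 moved, mostly on leaving out a scramble library, and none of 349 values of named genes reversed. With 2 libraries a group, the unadjusted 95% interval of the median gene reached 0.272 log2 to either side, and larger differences also missed the adjusted threshold.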

Other observations

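Over all genes 10.6% lay above and 11.9% below the scramble range. Among 16 genes of phospholipid turnover 3 lay above and none below, and Mboat1, a lysophospholipid acyltransferase, had 1.001 and 1.3 RPKM in the Pex7sh libraries, against 0.857 and 0.923 RPKM in the scramble libraries. Of 28 genes of mitochondrial biogenesis and dynamics 3 lay above and 3 below, of 20 genes of the endoplasmic reticulum unfolded protein response 1 above and 2 below, and of 19 genes of mitochondrial fatty acid oxidation 1 on each side. Of 13 mitochondrially encoded mRNAs 2 lay above and 3 below. None of 8 Sonic hedgehog genes lay outside the range. No member of these lists passed limma with Benjamini-Hochberg adjustment.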
